A study of Mus musculus with 2 samples.

Results

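The Hox genes encode homeodomain transcription factors and lie in 4 clusters, and their accessibility was examined in colonic macrophages of WT and Tle4cKO mice. The members were taken by symbol (Hoxa, Hoxb, Hoxc or Hoxd followed by a number) from the 21887 protein-coding genes of a RefSeq table, which gave 39 genes: 11 in the Hoxa, 10 in the Hoxb, 9 in the Hoxc and 9 in the Hoxd cluster. The rule reads symbols only. The 4 cluster windows, each reaching 5 kb beyond the outermost genes, held 82 of the 128737 WT peaks and 89 of the 128129 Tle4cKO peaks. The assay was ATAC-seq, in which a transposase cuts and tags open DNA. The cells were sorted from the colon of male C57BL/6 mice aged 18.9 weeks by the macrophage receptor CD64, with low Ly6C and without Siglec-F. Both genotypes carried Lyz2-Cre, and the Tle4cKO mice also carried the floxed allele Tle4f/f, so that Tle4, which encodes a Groucho-type corepressor, is deleted where Cre acts. Lyz2-Cre acts in myeloid cells at large, also before they reach the colon. Each library was made from the pooled cells of 2 mice, with 1 library per genotype, so that no value has a replicate check and no test between genotypes was made. Peak lists do not show whether Tle4 sequence was lost, and the genotypes are given as labelled.

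In the embryo the Hox genes are switched on in the order in which they lie along a cluster, low-numbered genes in the head end of the trunk and high-numbered genes towards the tail, and many adult cells keep part of that pattern. Genes of the same number in different clusters are paralogues that descend from 1 ancestral gene. Genes that are off are held by Polycomb complexes, and genes that are on are maintained by MLL (Trithorax-group) complexes. In blood formation, stem and progenitor cells use mainly Hoxa and Hoxb genes, among them Hoxa9 and Hoxb4, and expression is known to decline as myeloid cells mature.

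Each peak has a pileup, the authors' value for the stack of fragments at its summit, with no scaling stated. It was lower in the Tle4cKO library as a whole, with a median of 28 in WT and 20 in Tle4cKO over all peaks and a median Tle4cKO to WT ratio of 0.741 over 92335 pairs of shared peaks. Pileups are therefore given side by side, and they are compared between genotypes only relative to pairs of like summed pileup. Of 12 macrophage marker genes 12 had a gene-end peak, a peak within 1000 bp of either annotated end of the gene, in both lists, against 66.2% of all genes in WT and 65.3% in Tle4cKO. Their pileups were 95 to 222 in WT and 71 to 191 in Tle4cKO, and summed to 1833 and 1488. Gene-end peaks were also found at markers of other cells of the colon, so that their presence alone does not tell cell types apart. They were present at 6 of 9 fibroblast and muscle genes in WT and 7 of 9 in Tle4cKO (summed pileup 314 and 202), with Dcn and Col3a1 listed at 0 in both. Of the colon epithelium markers 4 of 8 had one in each list (268 and 198), with Krt20, Muc2, Car1 and Cdx2 at 0. The other counts, in WT and Tle4cKO, were 3 and 1 of 4 endothelial genes (306 and 101), 3 and 2 of 5 enteric neuron and glia genes (54 and 29), 4 and 3 of 6 T cell genes (341 and 262), and 4 and 4 of 4 B cell genes (271 and 145). Eosinophil genes gave 2 and 2 of 4 (116 and 44), and monocyte genes 4 and 3 of 4 (213 and 96). The sums depend on the 1000 bp limit and do not measure how many such cells were present. Pecam1 (endothelium) enters with 171 and 0, although its highest peak within 5 kb had 178 and 132. Ccr2 (monocyte) enters with 79 and 0, with a highest peak of 100 and 71. Siglecf (eosinophil) enters with 101 and 30, with a highest peak of 101 and 73. The part of such cells in the Hox peaks was not tested. In a bulk library, a site open in few cells and a site weakly open in all cells cannot be told apart.

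Most Hox genes had some accessible site nearby, but few had a strong one. Within the gene span and 5 kb on either side lay a peak at 36 of 39 genes in WT (92.3%) and 34 of 39 in Tle4cKO (87.2%). Over all protein-coding genes the shares were 77.6% and 78.6%, and over those of at most 10 kb, the size of most Hox genes, 59.5% and 60.0%. A peak overlapped the gene span itself at 32 and 31 Hox genes, against 73.2% and 73.9% of all genes. The windows overlap in the dense clusters. The 77 WT peaks in them were counted 133 times, and 46 of them fell in the windows of several genes. A gene-end peak was present at 31 genes in WT and 30 in Tle4cKO (79.5% and 76.9%), against 66.2% and 65.3% of all genes. A gene-end peak in the upper quartile of its list, at a pileup of 67 or more in WT or 47 or more in Tle4cKO, was present at 8 and 6 of the 39 genes (20.5% and 15.4%). Over all genes these shares were 50.7% and 50.3%. Among genes with a gene-end peak the median of the highest one was 32 in WT and 18.5 in Tle4cKO for Hox genes, and 136 and 105 for all protein-coding genes.

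The strong sites lay in the Hoxa and Hoxb clusters in both libraries. All 10 WT peaks and all 10 Tle4cKO peaks in the upper quartile of pileup lay in these clusters, 6 and 7 of them in Hoxa and 4 and 3 in Hoxb. They made up 12.2% of the WT and 11.2% of the Tle4cKO peaks along the clusters, against 25.2% and 25.5% of all peaks. The highest pileup in WT and Tle4cKO was 114 and 84 in Hoxb, 41 and 29 in Hoxc, and 35 and 33 in Hoxd. The Hoxa cluster was also the most densely covered. It held 29 peaks in each list over 116 kb, or 25.1 per 100 kb, which covered 16.8% of its length in WT and 17.3% in Tle4cKO. The other clusters held at most 13.5 peaks per 100 kb in WT and 16.7 in Tle4cKO. All gene windows of the genome, each a gene span and 5 kb on either side, held 7.42 and 7.29 per 100 kb. The cluster windows also take in DNA between the gene windows, so that these densities are not taken in quite the same way.

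**Figure D1:**
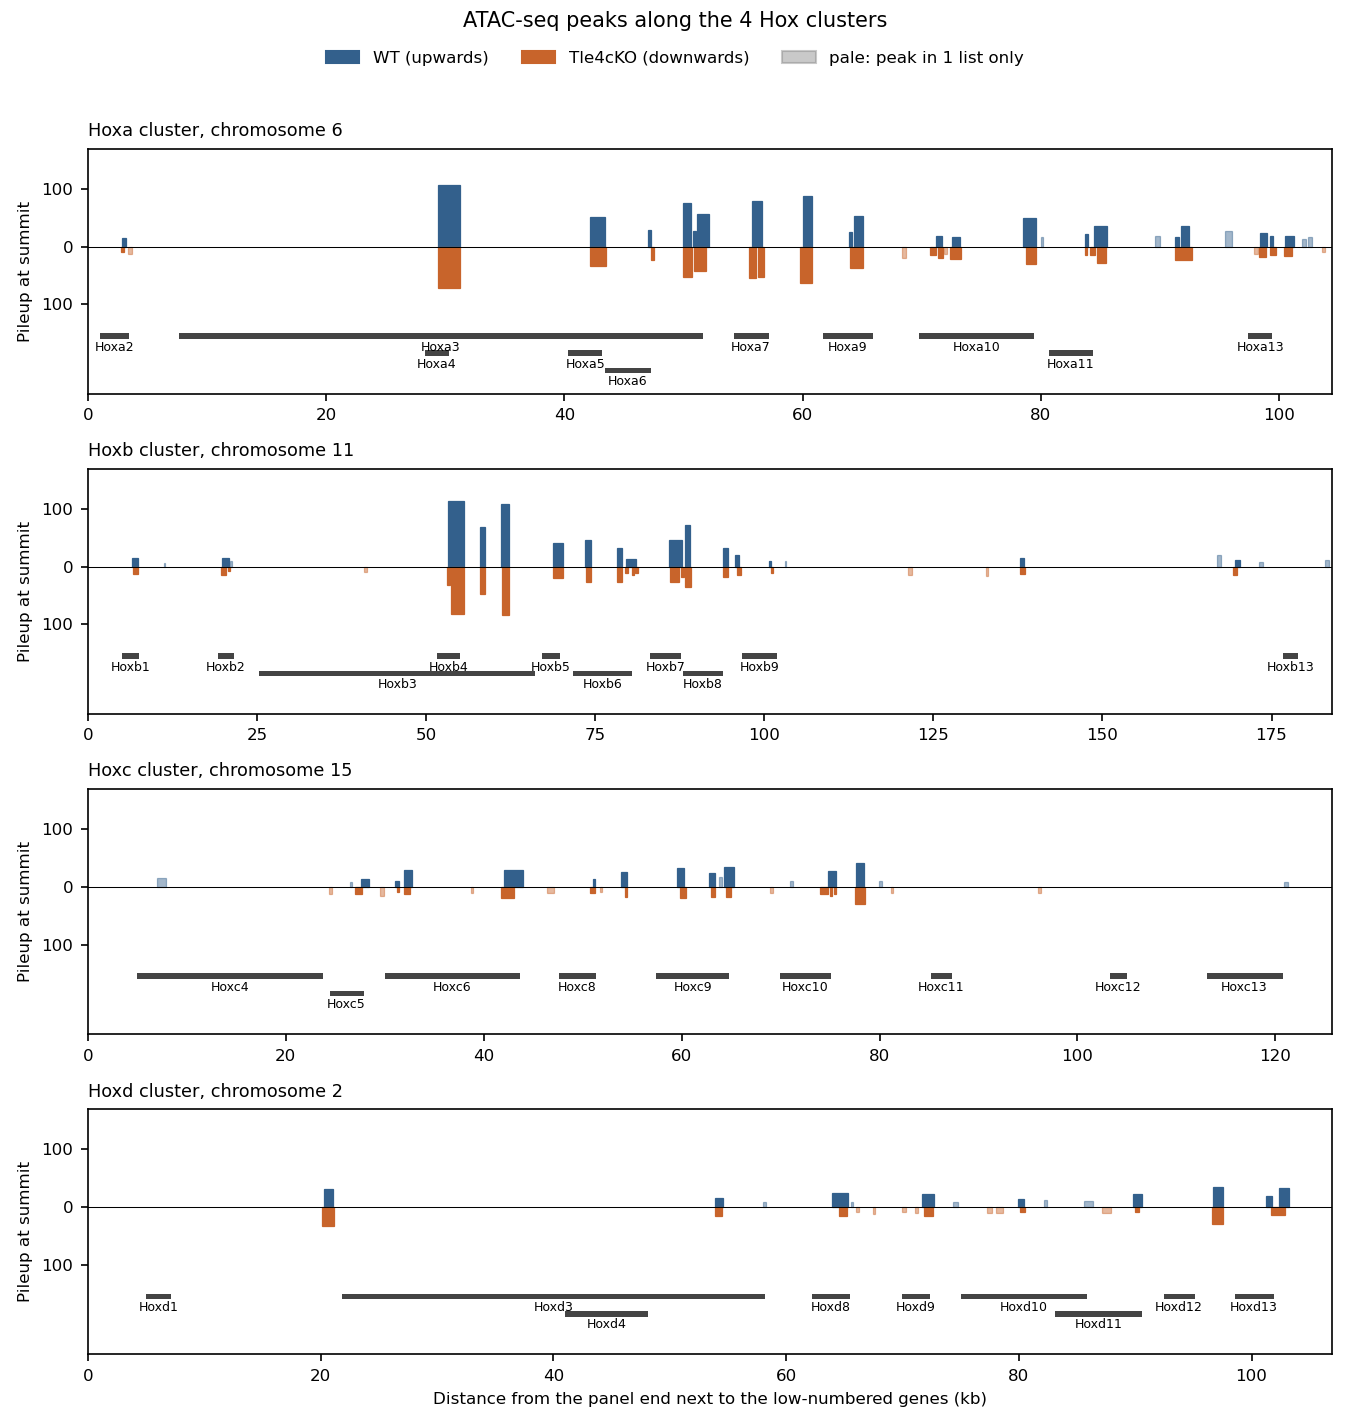
Peaks along the Hox clusters, drawn with low-numbered genes on the left. The Hoxa panel begins 1000 bp before Hoxa2. The x axis is distance in kb and differs between panels, bar width is peak width, bar height is pileup at the summit (WT upwards in blue, Tle4cKO downwards in orange), pale bars are peaks in 1 list only, and grey boxes are gene spans. Tall bars stand at Hoxa4 (107 and 72) and Hoxb4 (114 and 82), and the Hoxc and Hoxd bars stay at 41 or below.

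In the Hoxa cluster (chromosome 6, mm10) Hoxa2, which patterns the hindbrain, had only weak peaks in its span and at its ends, of 15 in WT and of 10 and 12 in Tle4cKO. The longest stretch of the cluster without a peak in either list, 25722 bp from 52165085 to 52190806, lay between Hoxa2 and the Hoxa4 peak, within and before the long annotated span of Hoxa3.

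From Hoxa3 to Hoxa9 every gene had a gene-end peak in both lists, in the upper quartile of pileup at all but Hoxa5 and Hoxa6. The Hoxa4 peak, at 52190807 to 52192635 in WT, reached 107 in WT and 72 in Tle4cKO, and that of Hoxa3 reached 75 and 53. Hoxa5, a regulator of lung and gut development, had 52 and 34, and Hoxa6 shares that peak and has a weaker one of its own, of 29 and 23. Hoxa7 had 80 in WT, where the Tle4cKO list divides the site into peaks of 55 and 52. The highest gene-end peak of Hoxa9, a gene central to blood progenitors and to leukaemia, had 87 and 63. It lay towards Hoxa7, 893 bp outside the Hoxa9 span in WT, at the end away from the listed start site. The listed Hoxa9 promoter had no peak in either list, and the highest peak inside the gene had 54 and 37. From Hoxa10 onwards the values were lower, with highest gene-end peaks of 49 and 30 at Hoxa10, 35 and 28 at Hoxa11, and 23 and 18 at Hoxa13, which acts in limb ends and hindgut. The Hoxa13 gene-end peaks lay below the median pileup of their list, 28 and 20.

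In the Hoxb cluster (chromosome 11) 3 of the 4 strong WT peaks and 3 of the 3 strong Tle4cKO peaks lay within the spans of Hoxb3 and Hoxb4. A WT peak of 2451 bp at 96317600 to 96320050 covered the start of Hoxb4, known for expanding blood stem cells, with a pileup of 114. The matching Tle4cKO peak, at 96317640 to 96319565, had 82. Inside the long annotated span of Hoxb3 lay a peak of 109 in WT and 84 in Tle4cKO (96310949 to 96312145 in WT) and one of 69 and 47 (96314625 to 96315231). Hoxb3 had no gene-end peak in either list. The other strong WT peak lay inside Hoxb8, at the end that faces Hoxb7, with 72 in WT and 35 in Tle4cKO. The gene-end peak of Hoxb5 had 42 and 19, and the highest peak inside Hoxb6 had 47 and 26. Hoxb1 and Hoxb2 had at most 16 in WT and 15 in Tle4cKO. Hoxb13, which marks the hindgut and tail end, lies far from the others. It had 2 WT peaks of 11 and 9 within 5 kb and no Tle4cKO peak.

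The Hoxc and Hoxd clusters had peaks that were mostly weak. Along Hoxc (chromosome 15) 5 of 17 WT and 1 of 21 Tle4cKO peaks reached the median pileup of their list, and along Hoxd (chromosome 2) 3 of 14 and 2 of 15 did. The corresponding counts were 14 of 29 and 15 of 29 in Hoxa, and 9 of 22 and 8 of 24 in Hoxb. The highest Hoxc peak lay 2550 bp outside Hoxc10, with 41 in WT and 29 in Tle4cKO. Hoxc6, Hoxc9 and Hoxc10, genes of the thoracic and lumbar trunk, had gene-end peaks of 30, 35 and 27 in WT and of 19, 17 and 16 in Tle4cKO. Hoxc12 had no peak within 5 kb in either list. Between the outermost genes, neither list had a peak from 102921131 to 102945564, a stretch of 24434 bp that holds Hoxc12 and Hoxc13. In the Hoxd cluster the highest WT peak, of 35, stood 957 bp outside Hoxd13, and its Tle4cKO partner, of 29, stood 1024 bp outside, beyond the gene-end limit. Just outside Hoxd3, in the non-coding gene Haglr, a peak had 32 in WT and 33 in Tle4cKO, the highest of the cluster in that list. Hoxd1 and Hoxd4 had no peak within 5 kb in either list, and the stretch without a peak that holds Hoxd4 was 32757 bp long, the longest of its cluster.

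Paralogues of the same number differed in pileup, most widely, among the 3 groups given here, at number 4. There Hoxa4 and Hoxb4 had gene-end peaks of 107 and 114 in WT and 72 and 82 in Tle4cKO. Hoxc4 had none in WT and one of 13 in Tle4cKO, which also counts for Hoxc5, and Hoxd4 had none. The listed Hoxc4 promoter lies inside the annotated span, away from its ends, and had a peak of 16 in WT and none in Tle4cKO. Of those numbered 9, Hoxa9 had 87 and 63, Hoxb9 20 and 14, Hoxc9 35 and 17, and Hoxd9 23 and 16. Of those numbered 13, Hoxa13 had 23 and 18, Hoxd13 35 and 14, Hoxc13 9 in WT and 0 in Tle4cKO, and Hoxb13 0 in both. Over the 39 genes the highest gene-end pileups of the libraries had a Spearman correlation of 0.956, with genes that share peaks counted each time, a value given as a description.

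**Figure D2:**
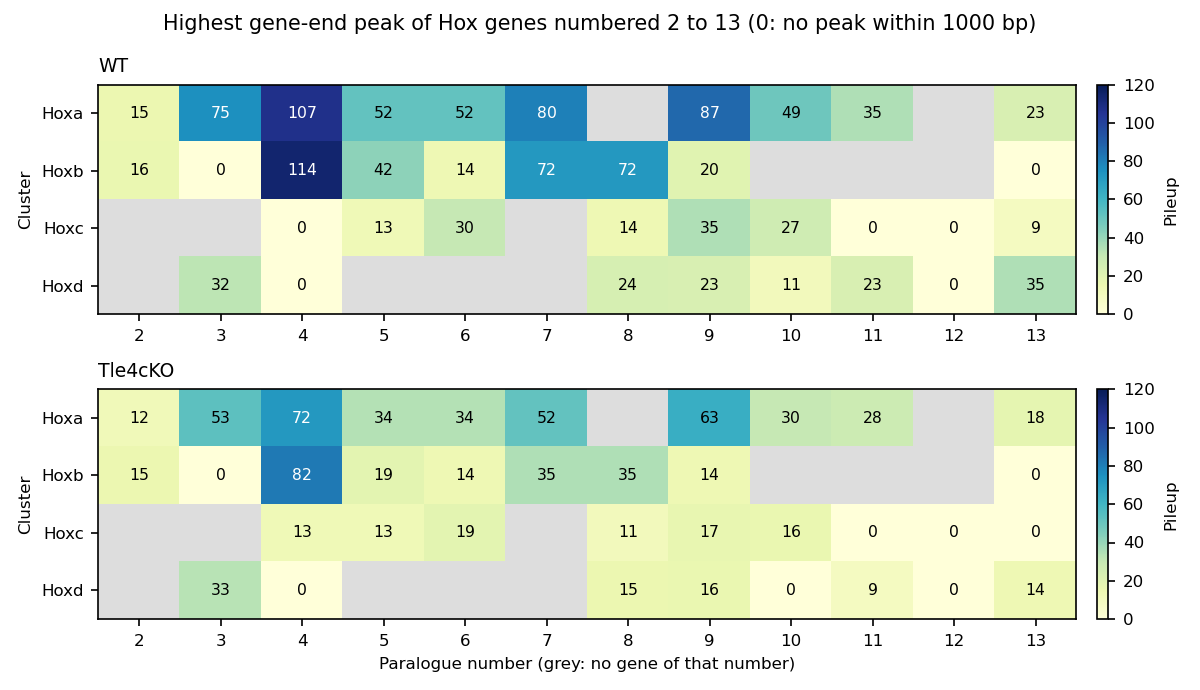
Highest gene-end pileup of each Hox gene numbered 2 to 13, by cluster (rows) and paralogue number (columns), in WT (upper grid) and Tle4cKO (lower grid). Darker cells are higher, 0 means no peak within 1000 bp of a gene end, and grey cells have no gene. The darkest cells are Hoxa4 and Hoxb4 in both grids, and no Hoxc or Hoxd cell exceeds 35.

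Start sites could be placed for 22 of the genes, whose promoters (250 bases before to 50 after a start site) are listed by RefSeq on GRCm38.p6 in 24 windows. A peak covered part of 12 of the 24 windows in WT and of 12 in Tle4cKO, against 59.9% and 59.0% of 21263 windows of protein-coding genes. Promoters rich in CpG dinucleotides are open in most cell types, and Hox promoters are known as CpG-rich sites that Polycomb complexes bind. The median number of CpGs per window was 14.5 at Hox genes and 13 over all genes. Of the 12 Hox windows above that Hox median, 7 had a WT peak and 9 a Tle4cKO peak. Over all windows of at least that CpG number the shares were 90.2% and 89.6%. In the Hoxa cluster 5 of 6 such windows had a peak in each list. In the Hoxd cluster 2 of 6 had one in WT, with pileups of 23 (Hoxd9) and 9 (Hoxd3), and 4 of 6 in Tle4cKO, with pileups of 11 to 16. The count depends on where peaks end. At Hoxd13, WT peaks of 33 and 20 lay on either side of the window, and 1 Tle4cKO peak of 14 crossed it.

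The promoters of Hoxb4 and Hoxa5, covered by peaks of 114 and 82 and of 52 and 34, are shown with those of Hoxd1 and Hoxd4, which no peak covered, to set CpG content beside accessibility. Each runs 5′ to 3′ along the gene, with CpGs in capitals. They lie at chr11:96318017-96318316 (plus strand), chr6:52204538-52204837 (minus strand), chr2:74762730-74763029 (plus strand) and chr2:74721728-74722027 (plus strand).
Hoxb4: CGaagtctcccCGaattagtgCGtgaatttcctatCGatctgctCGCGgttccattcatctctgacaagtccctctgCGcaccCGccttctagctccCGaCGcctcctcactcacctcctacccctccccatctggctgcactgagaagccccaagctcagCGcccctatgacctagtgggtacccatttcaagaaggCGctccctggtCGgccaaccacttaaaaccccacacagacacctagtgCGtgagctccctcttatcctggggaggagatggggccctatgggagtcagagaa
Hoxa5: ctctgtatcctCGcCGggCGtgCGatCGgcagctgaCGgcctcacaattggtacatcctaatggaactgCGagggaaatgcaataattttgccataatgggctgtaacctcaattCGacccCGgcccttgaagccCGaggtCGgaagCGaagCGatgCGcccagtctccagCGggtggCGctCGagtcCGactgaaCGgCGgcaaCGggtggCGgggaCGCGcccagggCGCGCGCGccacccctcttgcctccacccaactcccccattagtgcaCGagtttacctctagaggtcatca
Hoxd1: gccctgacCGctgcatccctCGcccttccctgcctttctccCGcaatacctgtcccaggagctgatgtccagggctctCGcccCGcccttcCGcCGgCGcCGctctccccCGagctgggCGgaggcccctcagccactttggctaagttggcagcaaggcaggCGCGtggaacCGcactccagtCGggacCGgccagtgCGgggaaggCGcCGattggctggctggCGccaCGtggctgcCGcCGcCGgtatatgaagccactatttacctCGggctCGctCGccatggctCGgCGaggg
Hoxd4: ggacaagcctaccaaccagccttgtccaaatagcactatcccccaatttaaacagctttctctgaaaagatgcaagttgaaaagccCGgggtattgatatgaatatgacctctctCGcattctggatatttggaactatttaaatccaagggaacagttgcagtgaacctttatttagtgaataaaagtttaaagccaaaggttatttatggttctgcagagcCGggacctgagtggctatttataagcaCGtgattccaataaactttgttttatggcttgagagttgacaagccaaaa
Hoxb4 holds 14 CpGs and Hoxa5 29. Hoxd1 also holds 29, with no peak in either list, and Hoxd4 holds 4. Of 10 short motifs searched on both strands, CCAAT occurred in 15 of the 24 Hox windows (62.5%, against 38.2% of all windows). The GC box GGGCGG occurred in 10 (41.7%, against 46.2%), the E-box CACGTG in 5 (20.8%, against 7.84%) and the TATA box TATAAA in 4 (16.7%, against 12.6%). The Pbx-Hox motif TGATTNAT occurred in 2 (8.33%, against 2.75%) and the Meis motif TGACAG in 2 (8.33%, against 18.7%). The AP-1 motif TGANTCA occurred in 1 and the PU.1 motif GAGGAAGT in 1 (4.17% each, against 6.99% and 3.13%). The cyclic AMP response element TGACGTCA and the Runx motif TGTGGTT occurred in 0 (against 2.23% and 4.71%). Such matches describe these letters in these windows and are not binding sites.

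The clusters also encode microRNAs that repress Hox messages, and 4 mature sequences are shown because their loci differed in accessibility although they share seeds. Sequences are from RefSeq (GRCm38.p6), 5′ to 3′, with the seed, bases 2 to 8, in capitals.
miR-10a-5p: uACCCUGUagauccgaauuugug
miR-10b-5p: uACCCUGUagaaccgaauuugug
miR-196a-5p: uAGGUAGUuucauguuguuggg
miR-196b-5p: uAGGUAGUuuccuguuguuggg
Both miR-10 forms have the seed ACCCUGU, and both miR-196 forms have AGGUAGU. The Mir10a hairpin, upstream of Hoxb4, lay 326 bp from the WT peak of 114 and 366 bp from the Tle4cKO peak of 82. The Mir10b hairpin, inside the annotated span of Hoxd4, lay 9802 bp from the nearest WT peak and 9812 bp from the nearest Tle4cKO peak, of 15 and 16. Mir196b, between Hoxa9 and Hoxa10, was overlapped by a Tle4cKO-only peak of 19 (chromosome 6, 52229786 to 52230134), and the nearest WT peak, of 18, lay 2432 bp away. Mir196a-1 in Hoxb and Mir196a-2 in Hoxc were overlapped by no peak. Their nearest peaks had a pileup of 10 in both lists, at 4797 and 6712 bp for Mir196a-1 and at 2490 and 432 bp for Mir196a-2.

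Among the long non-coding genes of the clusters, Hottip, at the Hoxa13 end, held 2 peaks of at most 16 in WT and 2 of at most 10 in Tle4cKO. Hotair, in Hoxc, held none in WT and 1 of 11 in Tle4cKO. Hoxaas3, which runs through Hoxa5 and Hoxa6 and past an end of the Hoxa3 span, held 5 WT peaks of up to 75 and 4 Tle4cKO peaks of up to 53. The highest of them is the gene-end peak given above for Hoxa3. Strand is not known in these data, so that a peak in an overlapping pair of genes cannot be given to either.

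Peaks found in 1 genotype were weak and, over the 4 Hox clusters together, about as frequent as elsewhere. Of the 82 WT peaks 22 overlapped no Tle4cKO peak (26.8%, 95% Wilson interval 18.4% to 37.3%), against 27.1% of all WT peaks. Of the 89 Tle4cKO peaks 23 overlapped no WT peak (25.8%, 17.9% to 35.8%), against 23.5%. Peaks of the same pileups in the whole lists would give 25.7 WT-only and 23.2 Tle4cKO-only peaks. Pileups ran from 7 to 27 for WT-only and from 8 to 19 for Tle4cKO-only peaks, so that 0 of either reached the median of its list, 28 and 20. By cluster, WT-only peaks numbered 5 of 29 in Hoxa (17.2%), 6 of 22 in Hoxb (27.3%), 6 of 17 in Hoxc (35.3%) and 5 of 14 in Hoxd (35.7%). In the same order, Tle4cKO-only peaks numbered 5 of 29 (17.2%), 3 of 24 (12.5%), 8 of 21 (38.1%) and 7 of 15 (46.7%). Peaks of the same pileups would give 5.0, 8.2, 6.6 and 5.9 WT-only and 3.9, 5.5, 7.5 and 6.4 Tle4cKO-only peaks. The total counts depend on the overlap rule and on the minimum pileup. Counting peaks within 500 bp of the other list as shared left 17 and 17. A 50% reciprocal overlap gave 42 and 49, and peaks of at least 15 gave 7 and 4. The shares of all peaks given above hold for overlap by 1 bp only. Those under the other rules are not given here, so these counts cannot be read as more or fewer than elsewhere.

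The strongest of these peaks were named after their values were seen. The WT-only peak of 27 lay 1411 bp outside Hoxa13 (chromosome 6, 52256865 to 52257442), and the next, of 21, lay 9140 bp outside Hoxb13 (chromosome 11, 96205750 to 96206348). The strongest Tle4cKO-only peak was that at Mir196b, and the next, of 16, lay 30865 bp outside Hoxb9 (96240121 to 96240465), in the long interval between Hoxb9 and Hoxb13.

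The heights of shared Hox peaks stood in the ratio usual for peaks of their size. The 60 WT and 66 Tle4cKO peaks that overlapped formed 56 pairs of mutually highest peaks, with a median Tle4cKO to WT ratio of 0.703. The ratio's 95% counting interval (exact Clopper-Pearson) was wholly above the typical ratio at that pileup for 0 of 56 and wholly below it for 0 of 56, against 0.696% and 0.632% of all pairs. Relative to pairs of like pileup, the median log2 ratio was 0.00, with 27 pairs below, against 46.7% of all pairs, and 23 above. A higher raw pileup in Tle4cKO was seen in 5 of 56 pairs, against 6.59% of all. By cluster the median relative log2 ratio was 0.00 in Hoxa (21 pairs), 0.00 in Hoxb (16), -0.01 in Hoxc (11) and -0.08 in Hoxd (8). Parts of Hoxb, Hoxc and Hoxd differed. In Hoxb the median was -0.32 for the 7 pairs nearest an end of Hoxb5 to Hoxb8, 5 of them below. The median was 0.07 for the 5 pairs at Hoxb1 to Hoxb4 (2 below) and for the 4 at Hoxb9 and Hoxb13 (0 below). In Hoxc it was -0.22 for the 5 pairs at Hoxc9 and Hoxc10 (3 below) and -0.01 for the 6 at Hoxc5 to Hoxc8 (3 below). In Hoxd it was -0.40 for the 5 pairs at Hoxd9 to Hoxd13 (3 below) and 0.58 for the 2 at Hoxd3 (0 below). The 1 pair at Hoxd8 had -0.15. These differences were not tested. The median over all of Hoxd turned to 0.18 with 5 pairs of a pileup of at least 15 and to 0.43 with 2 of at least 20. Across the 56 pairs, which come from the same libraries, the Spearman correlation of the pileups was 0.886, against 0.962 over all pairs, whose pileups span a wider range.

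At the strong sites the counting intervals, which leave out the spread between mice, were as follows. The Hoxb4 peak had 0.719 (0.535 to 0.964), with 0.741, the Hoxb3 peak 0.771 (0.573 to 1.03), with 0.733, and the Hoxa4 peak 0.673 (0.492 to 0.916), with 0.731. The peak next to Hoxa9 had 0.724 (0.515 to 1.01), with 0.717. At weak sites they were wide, as at Hoxd3 (15 in WT and 16 in Tle4cKO), where the ratio was 1.07 (0.494 to 2.32), with 0.722.

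Some of the pairs farthest from their like were also named after their values were seen, and each of their intervals held the ratio of like pairs. Below it stood the peak at Hoxd11, with 23 in WT and 9 in Tle4cKO, a ratio of 0.391 (0.159 to 0.878, with 0.737 for like pairs), and the peak in Hoxb8 that faces Hoxb7, with 72 and 35, a ratio of 0.486 (0.315 to 0.738, with 0.688). They ranked at the 1.48th and 2.73rd percentile of pairs of like pileup. A peak inside Hoxc6, with 29 and 12, was at the 3.44th percentile, and a pair at Hoxd13, with 33 and 14, at the 4.42nd. The Hoxb5 peak, with 42 and 19, was at the 4.94th percentile. Above it stood a peak inside Hoxa10, with 16 in WT and 22 in Tle4cKO, a ratio of 1.38 (0.690 to 2.80, with 0.727), at the 98.8th percentile. The Haglr peak outside Hoxd3, with 32 and 33, was at the 96.4th percentile.

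**Figure D3:**
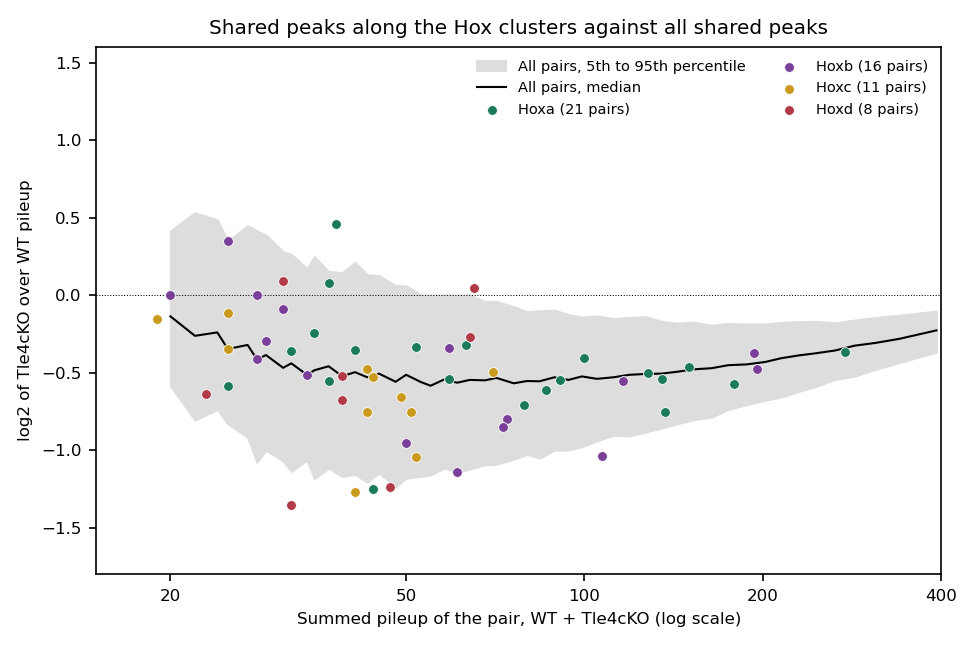
The log2 ratio of Tle4cKO to WT pileup (y axis) against the summed pileup of the pair (x axis, log scale) for the 56 Hox pairs, coloured by cluster. The black line is the median of all 92335 pairs and the grey band runs from their 5th to their 95th percentile in 50 classes of summed pileup. The Hox points scatter on both sides of the line, with a median relative log2 ratio of 0.00, and the few outside the band include Hoxd11 below and Hoxa10 above.

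Genes that act with or on the Hox genes had higher gene-end peaks than most Hox genes. All 9 genes of the Hox cofactors, the TALE proteins of the Meis, Pbx and Pknox families that bind DNA beside Hox proteins, had a gene-end peak in both lists, against 66.2% and 65.3% of all genes. Their median was 107 in WT and 80 in Tle4cKO, against 70 and 48 over all genes with those without a peak at 0, with Pbx3 at 210 and 155, Meis1 at 95 and 78, and Meis2 at 20 and 18. Of 23 Polycomb genes 23 had a gene-end peak in WT and 22 in Tle4cKO, with medians of 160 and 122. The exception, Cbx7, had 13 in WT and 0 in Tle4cKO, although its highest peak within 5 kb had 117 and 82. Ezh2, the main methyltransferase of the complex, had a gene-end peak of 182 and 156. Of 15 Trithorax and MLL genes 13 had one in each list, with medians of 154 and 128, and Kmt2a, which encodes MLL1, had 144 and 91. Ash2l and Dpy30 had no gene-end peak in either list. Their highest peaks within 5 kb had 128 and 93 at Ash2l and 172 and 129 at Dpy30. Median gene-end pileups of the Hox clusters, genes without a peak at 0, were 52 and 34 in Hoxa, 18 and 14.5 in Hoxb, 13 and 13 in Hoxc, and 23 and 9 in Hoxd.

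**Figure D4:**
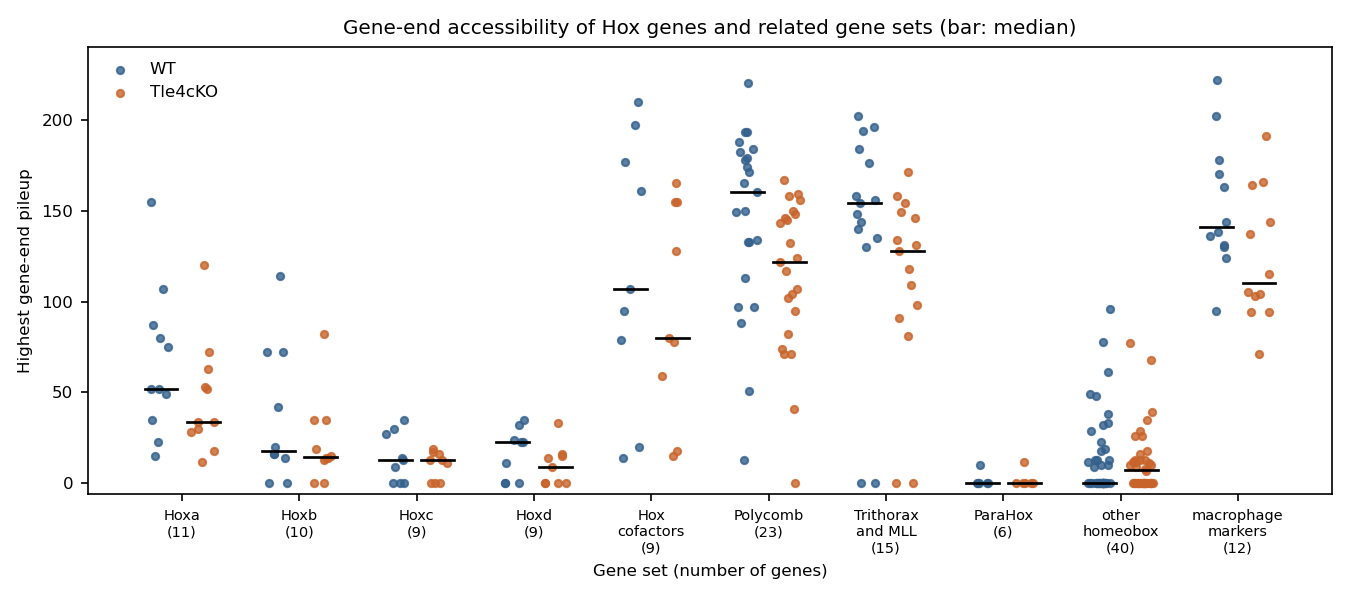
Highest gene-end pileup (y axis) of every gene in the 4 Hox clusters and in 6 other gene sets, in WT (blue) and Tle4cKO (orange). Each point is a gene, 0 means no gene-end peak, black bars are medians, and numbers in brackets are genes. Medians of the Polycomb, Trithorax and MLL, and macrophage marker genes lie above 100, and those of the Hox clusters at 52 or below.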

How the data were processed

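The peak lists of 2 libraries were analysed, 1 per genotype. Each list gives position, width, summit and pileup, per the file headers. The pileup is a signal, deposited by the authors as whole numbers of at least 7. Per the submitters' processing notes the tools include MACS2 2.1.1, HOMER 4.7.2, Bowtie2 2.2.5 and cutadapt 1.14, and the build is mm10. The sources used here do not give thresholds, duplicate handling, a transposase shift, read totals or scaling. A weak peak near the threshold can therefore appear in 1 list by calling alone.

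Gene ends, promoters and microRNAs came from RefSeq tables on GRCm38.p6 (mm10), of which the gene table gives no strand. Overlap by at least 1 bp made peaks shared, checked with bedtools 2.31.1. A pair joined the highest overlapping peaks where that choice was mutual, and log2 ratios were set against the median of 50 classes of summed pileup. Python 3.11.15, pandas 2.3.3 and scipy 1.17.1 were used, and the steps were tested on simulated data. Intervals cover counting error only and are approximate for a summit. Genes were described if they had a gene-end peak, a list-only peak nearby or the highest pileup of their cluster. Peaks were named if highest in their cluster, list-only above the list's median, or in a pair off its like. Some items that meet these rules are not reported here. The other named peaks were chosen after their values were seen. Alternatives varied flanks, pileup minimums, overlap and classes. The members and lists were chosen with earlier results of these data known.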

Additional observations from a re-analysis of the deposited data

How the results depend on the processing

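Of 41 values recomputed for the 9 main results under other settings, 30 stayed within the tolerance, a factor of 1.5 for counts and the interval of the median for ratios. Of the 11 others, 9 came from a minimum pileup and 2 from a 50% reciprocal overlap. With a pileup of at least 20, the clusters held 45 WT and 26 Tle4cKO peaks. At that minimum 21 Hox genes in Tle4cKO had a peak within 5 kb and 13 a gene-end peak, and in WT 30 and 23, within the tolerance. The same minimum is stricter for Tle4cKO, since 20 is the median pileup of that list and the WT median is 28. The shares of all genes at that minimum are not given here. With at least 15 the clusters held 47 Tle4cKO peaks, and 60 WT peaks, within the tolerance. WT-only peaks numbered 42 with a 50% reciprocal overlap, 7 with at least 15 and 2 with at least 20, and Tle4cKO-only peaks 49, 4 and 0. The shares of all peaks under these settings are not given here. The median relative log2 ratio of all Hox pairs stayed between -0.03 and 0.00 under other classes, pileup minimums and flanks. That of Hoxd turned from -0.08 to 0.18 with 5 pairs of at least 15 and 0.43 with 2 of at least 20. Of the values by cluster, 56 stayed within the tolerance and 36 did not. No paired analysis was possible because each genotype has 1 library, and no replicate could be left out. Depth is unknown, so that a gene without a peak was below the caller's threshold, not shown to be closed.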

Other observations

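Homeobox genes outside the Hox clusters were compared in the same way. Of 40 developmental homeobox genes, 19 had a gene-end peak in WT and 21 in Tle4cKO, or 47.5% and 52.5%, against 66.2% and 65.3% of all genes. Their medians were 0 and 7.5 over all 40. Among them Dlx2 had 96 in WT and 77 in Tle4cKO, and Irx5 had 61 and 35. Lhx2 had 49 and 39, Dlx4 48 and 29, and Nkx2-3, known in the mesenchyme of gut and spleen, had 38 and 26. Both Evx genes, which flank Hox clusters, had no gene-end peak in WT and ones of 12 (Evx1) and 13 (Evx2) in Tle4cKO. Both values lie below the median pileup of the Tle4cKO list, 20. Within 5 kb of Evx2 lay a higher peak, of 52 in WT and 31 in Tle4cKO, while Evx1 had no WT peak within 5 kb. Of the 6 ParaHox genes, relatives of the Hox genes that include the intestinal gene Cdx2, only Gsx1 had a gene-end peak, of 10 in WT and 12 in Tle4cKO.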
